A study of Mus musculus with 59 samples.

Results

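The genes described here are 10 members of the FGF-ERK pathway in mouse embryonic stem cells: Fgf4, Fgfr1, Fgfr2, Spry1, Spry2, Spry4, Spred1, Dusp6, Etv4 and Etv5. They were chosen by name, as a ligand, its receptors, their feedback inhibitors and their target transcription factors, and are 10 of the 39017 genes listed in the deposited RNA tables. All 10 were counted in each of 35 RNA libraries, and the 5 kb windows over their spans were counted in 24 libraries of chromatin immunoprecipitation (ChIP). In the RNA set of floxed cells, DGCR8 Flox/Flox cells with Rosa26:CRE (the DGCR8 line) and Drosha Flox/Flox cells (the Drosha line, for which the labels name no Cre) received 0.5 µM 4-hydroxytamoxifen (4OHT), the ligand that switches on tamoxifen-dependent Cre, or were left as controls. They were collected after 24, 48 or 96 h, with 2 libraries per group and 1 library for 4OHT in the Drosha line at 96 h. In the RNA set of heated cells, 4 METTL3KO lines (1d1, 3xU, 1d2 and 2c4d) and the parental cells (1 and 2), all carrying DGCR8 tagged with FLAG/Avi and the biotin ligase BirA at Rosa26, were held at 42 °C for 1 h or kept at 37 °C, with 1 library per line and temperature. In the ChIP libraries, biotin-tagged METTL3, DGCR8, Drosha or Dicer was pulled down with streptavidin and set against input chromatin. DGCR8 was also pulled down from METTL3KO cells, and DGCR8 and METTL3 also from cells held at 42 °C for 1 h. METTL3 came from clones 1 and 2, each with 2 precipitates and 1 input at 37 °C. For the heated ChIP set it came from lines H4 and H5, each with 1 precipitate per temperature and 1 input at 37 °C. Some DGCR8 precipitates came from cells crosslinked with formaldehyde or disuccinimidyl glutarate (DSG), and those of Drosha and Dicer from cells crosslinked with DSG. All cells were 129xC57Bl6 hybrid embryonic stem cells grown on gelatin in serum with LIF (leukaemia inhibitory factor, which sustains self-renewal), which the controls shared. Each line is 1 cell line, and the labels do not say whether the knockout lines or the 2 parental cultures arose independently. For some floxed RNA samples the title disagreed with the source name and with the treatment field, and for some METTL3 and heated ChIP samples with the source name. Groups follow the titles, which the column names of the floxed RNA table match, and 1 DGCR8 precipitate was assigned by elimination, so all directions rest on the titles.

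In embryonic stem cells, FGF4 is secreted by the cells themselves and signals through the receptor tyrosine kinases FGFR1 and FGFR2 to the kinases MEK and ERK, which prime the cells to leave the naive state. Active ERK induces its own brakes: the Sprouty and Spred proteins act on RAS and RAF upstream of ERK, and DUSP6 removes the activating phosphates from ERK itself. ERK also induces the ETS-family transcription factors ETV4 and ETV5, and RNA of these genes is widely used as a readout of FGF signalling. DGCR8 and Drosha form the Microprocessor, which cuts microRNA hairpins from primary transcripts, while METTL3 is the enzyme that writes N6-methyladenosine on RNA.

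The promoters of Spry1, Spry2 and Dusp6 are shown because RNA of these inhibitors was called lower after 4OHT in a joint fit of both floxed lines, for Dusp6 with a call that depended on single libraries. They are taken from RefSeq (GRCm38.p6), from 250 bases before to 50 bases after the annotated start, 5′ to 3′ on the gene's strand: Spry1 at chr3:37639697-37639996 on the plus strand, Spry2 at chr14:105896770-105897069 on the minus strand and Dusp6 at chr10:99262981-99263280 on the plus strand. Capitals mark CCGGAA, a form of the ETS motif, searched on both strands (reverse complement TTCCGG), with no overlap with another motif. Other forms, such as the shorter GGAA, were not searched or marked.
Spry1: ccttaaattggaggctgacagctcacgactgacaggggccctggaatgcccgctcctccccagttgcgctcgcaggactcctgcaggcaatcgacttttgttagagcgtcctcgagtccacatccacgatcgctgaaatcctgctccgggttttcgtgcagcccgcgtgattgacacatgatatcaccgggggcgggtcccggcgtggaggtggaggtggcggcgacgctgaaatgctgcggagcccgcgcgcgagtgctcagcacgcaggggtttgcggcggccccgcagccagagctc
Spry2: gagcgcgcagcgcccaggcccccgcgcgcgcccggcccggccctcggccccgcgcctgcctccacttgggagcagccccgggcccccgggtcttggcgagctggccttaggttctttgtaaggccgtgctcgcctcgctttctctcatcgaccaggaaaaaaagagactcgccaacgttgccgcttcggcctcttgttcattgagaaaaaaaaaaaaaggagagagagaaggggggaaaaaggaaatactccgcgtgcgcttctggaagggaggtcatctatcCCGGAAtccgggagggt
Dusp6: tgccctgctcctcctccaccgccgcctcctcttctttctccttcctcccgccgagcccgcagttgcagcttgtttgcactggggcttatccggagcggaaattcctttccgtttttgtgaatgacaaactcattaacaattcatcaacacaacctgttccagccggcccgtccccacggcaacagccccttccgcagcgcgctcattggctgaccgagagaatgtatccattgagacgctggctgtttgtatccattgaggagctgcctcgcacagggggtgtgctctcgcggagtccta
Of the 7 members with an entry in that promoter table, Spry2 alone held CCGGAA, at 1 place on its own strand, against 14.9% of all 32851 promoters of the same length. No promoter was printed for Etv4, Fgfr1 and Spry4. The 3 promoters were rich in CpG: 29 CpG in Spry1, 28 in Spry2 and 19 in Dusp6, against a median of 7 over all promoters. The genes themselves lie at chr3:37639947-37644599 (Spry1), chr14:105891947-105896819 (Spry2) and chr10:99263231-99267489 (Dusp6), and Fgf4 lies at chr7:144861386-144865245. Dusp6 overlaps the predicted gene Gm34921 and Fgfr1 overlaps Gm31288 and Gm16159, and the counting strand is not given in the sources used here, so reads of such neighbours cannot be told apart from theirs.

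Library totals were 9.58 to 12.6 M reads in the floxed set and 7.10 to 13.6 M in the heated set, and each member had 53 or more reads in every library. RNA levels are given as CPM, read counts relative to the TMM-scaled library size. RNA of Drosha stood at 23.4 to 29.1 CPM in 4OHT libraries of the Drosha line across the 3 times, against 82.4 to 126 CPM in its controls. Counts of Dgcr8 cover the whole gene and not the floxed part alone, and were 223 to 290 CPM in 4OHT libraries of the DGCR8 line against 105 to 145 CPM in controls, so they do not check the deletion. All 9 embryonic stem cell markers, among them Pou5f1 and Nanog, were detected in every RNA library, with summed levels of 2519 to 5002 CPM, while the 8 fibroblast markers summed to at most 49.8 CPM. Libraries of 4OHT cells at 96 h differed in their share of mitochondrial ribosomal RNA: mt-Rnr2 took 27.1% and 9.55% of reads in the 4OHT libraries of the DGCR8 line and 21.3% in that of the Drosha line, against 11.7% to 15.4% in the 4 controls. The labels do not say that replicates came from separate cultures, so the p-values reflect the spread among the libraries at hand, part of which may be technical. The 2 4OHT libraries of the DGCR8 line at 96 h differed more than any other pair, with a chi-square per degree of freedom of 126 over 15392 genes, against 4.16 to 14.7 in the other floxed groups. RNA was extracted in bulk, so fewer cells of a type and less RNA per cell cannot be told apart.

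Without 4OHT, the ligand had the highest mean level per length of RNA in both lines. In controls of the DGCR8 line, the level per kilobase of exon was 78.5 CPM per kb for Fgf4 (range 70.1 to 91.9, n = 6), followed by 54.2 for Spry2 (45.6 to 63.5) and 49.8 for Spry4 (44.4 to 55.7), whose ranges overlapped. Spred1 (35.4), Etv5 (31.5) and Dusp6 (29.3) formed a middle group with overlapping ranges, and Etv4 stood at 15.7. The receptors and Spry1 were lowest, at 10.0 CPM per kb for Fgfr1, 6.26 for Spry1 and 4.51 for Fgfr2. The Drosha line kept this order at its lower end, with Etv4 at 18.3, Fgfr1 at 14.1, Spry1 at 6.31 and Fgfr2 at 4.86 CPM per kb (n = 6), but Dusp6 stood beside Fgf4 at its top, at 51.1 CPM per kb (45.5 to 56.7) against 52.5 for Fgf4 (49.3 to 54.7). Parental cells of the heated set at 37 °C had 64.4 CPM per kb of Fgf4 and 63.4 of Spry4, and 4.28 of Fgfr2 and 4.18 of Spry1, with overlapping values within each pair (n = 2).

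The untreated lines differed in 6 of the 10 genes. Untreated DGCR8 cells had more Spry2 (log2 fold change 0.66 ± 0.09, SE; adjusted p = 6.25e-06), Fgf4 (0.58 ± 0.05; adjusted p = 2.24e-08) and Spred1 (0.21 ± 0.06; adjusted p = 0.00923) than untreated Drosha cells. They had less Dusp6 (-0.80 ± 0.11; adjusted p = 5.9e-06), Fgfr1 (-0.49 ± 0.11; adjusted p = 0.000917) and Etv4 (-0.22 ± 0.08; adjusted p = 0.0254), in edgeR's quasi-likelihood test with Benjamini-Hochberg adjustment. Of all 16606 genes, 48.7% were called between these lines (23.3% higher and 25.4% lower in the DGCR8 line), so 6 of 10 is near the background. The Spred1 call was lost with library totals alone (0.11, adjusted p = 0.182), and the Etv4 call was lost without a filter on low counts (-0.20, adjusted p = 0.0863). The Etv4 call was also lost without any of several single control libraries of both lines, such as replicate 2 of the DGCR8 line at 48 h (-0.17). The 8 fibroblast markers summed to 6.32 to 7.69 CPM in untreated DGCR8 cells, with 4 to 6 detected. In untreated Drosha cells they summed to 19.2 to 49.8 CPM, with 7 detected. In the same order, 8 trophoblast markers summed to 64.8 to 104 and 287 to 386 CPM. The 8 neuroectoderm markers summed to 66.0 to 90.5 and 148 to 180 CPM. Markers of the formative state, described below, summed to 166 to 186 and 247 to 338 CPM, and 9 primitive endoderm markers to 80.3 to 109 and 120 to 165 CPM. The 9 embryonic stem cell markers went the other way, at 4160 to 4425 and 3001 to 3515 CPM. The part of these marker sets in the differences was not tested. Each line is a single cell line, so line and genotype cannot be told apart.

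After 4OHT, RNA of feedback inhibitors had fallen in both lines by 96 h. Spry1, an inhibitor of receptor tyrosine kinase signalling, had the lowest log2 fold change of the 10 genes in both lines. Spry2, another Sprouty inhibitor, and Etv4, an ETS transcription factor induced by ERK, also fell in both lines at 96 h. Spry4 and Dusp6 were called lower, and Spred1 higher, in the Drosha line and not in the DGCR8 line at that time. The difference between the lines was called for none of them. The receptors Fgfr1 and Fgfr2 and the transcription factor Etv5 did not pass at any time in either line. The first value of each pair is replicate 1.

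Spry1 stood at 6.68 and 7.61 CPM in 4OHT cells of the DGCR8 line at 96 h, against 17.4 and 19.4 CPM in controls. In the Drosha line at 96 h it was 6.06 CPM in the 4OHT library, against 16.4 and 18.6 CPM in controls. The 4OHT values lay below every control in both lines, as for 16.2% of all genes. The log2 fold change was -1.36 ± 0.16 (adjusted p = 0.00102) in the DGCR8 line and -1.53 ± 0.20 (adjusted p = 0.00019) in the Drosha line. At 48 h, Spry1 had 9.12 and 7.84 CPM in 4OHT cells of the DGCR8 line against 19.0 and 16.8 CPM in controls, and 9.89 and 9.04 CPM in 4OHT cells of the Drosha line against 16.3 and 14.8 CPM in controls. These groups did not overlap either, and 8.84% of all genes lay below in both lines in this way. The log2 fold changes of Spry1 were -1.07 ± 0.16 (adjusted p = 0.013) and -0.72 ± 0.15 (adjusted p = 0.0181). The call at 48 h was lost in the DGCR8 line when any 1 of its 4 libraries was left out (adjusted p = 0.0711 to 0.167), and in the Drosha line without either control or without 4OHT replicate 1 (0.0576 to 0.217). At 24 h the 4OHT values were again the lower ones in both lines, at 12.5 and 14.4 CPM in 4OHT cells of the DGCR8 line against 18.2 and 18.3 CPM in controls, and 19.4 and 16.9 CPM in 4OHT cells of the Drosha line against 22.4 and 21.5 CPM in controls. Of all genes, 5.87% lay below in both lines in this way. The difference of Spry1 did not pass the test (log2 fold changes -0.43 and -0.26, adjusted p = 0.846 and 0.495).

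Spry2 stood at 81.0 and 61.3 CPM in 4OHT cells of the DGCR8 line at 96 h against 115 and 132 CPM in controls. It stood at 45.8 CPM in the 4OHT library of the Drosha line against 83.1 and 77.3 CPM in controls. All 4OHT values were the lower ones in both lines, as for 16.2% of all genes. Spry2 fell by 0.80 on the log2 scale in the DGCR8 line (adjusted p = 0.0155) and by 0.81 in the Drosha line (adjusted p = 0.000709). The call in the DGCR8 line was lost without either control (adjusted p = 0.0565 and 0.131). At 48 h it fell by 0.43 in the Drosha line (adjusted p = 0.0386), with 47.3 and 48.5 CPM in 4OHT cells against 65.7 and 63.0 CPM in controls. That call was lost without either control or without 4OHT replicate 1 (adjusted p = 0.138 to 0.310) and with library totals alone (adjusted p = 0.0750). Spry4, the most abundant Sprouty by CPM, had 102.8 CPM in the 4OHT library of the Drosha line at 96 h against 207.0 and 209.3 CPM in controls. Of all genes, 40.4% lay below both controls in that library. Spry4 had 159 and 225 CPM in 4OHT cells of the DGCR8 line against 238 and 234 CPM in controls. Its 4OHT value was far below the controls in the Drosha line, where the log2 fold change was -1.02 ± 0.14 (adjusted p = 0.000199), while the 4OHT libraries of the DGCR8 line differed from each other and the change did not pass (-0.30 ± 0.15; adjusted p = 0.226). Spred1, which binds neurofibromin to restrain RAS, had 264 CPM in the 4OHT library of the Drosha line at 96 h against 216 and 206 CPM in controls, and 40.3% of all genes lay above both controls there. This single library was the higher one (0.32 ± 0.11; adjusted p = 0.0396), but the call was lost without control replicate 1 or 2 (adjusted p = 0.0512 and 0.0921) and with library totals alone (0.04; adjusted p = 0.821).

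Dusp6, the ERK phosphatase, had 94.4 and 103.9 CPM in 4OHT cells of the Drosha line at 48 h against 140.1 and 127.3 CPM in controls. It had 102.2 CPM in the 4OHT library at 96 h against 149 and 132 CPM in controls. It fell by 0.44 on the log2 scale at 48 h (adjusted p = 0.0269) and by 0.46 at 96 h (adjusted p = 0.0143); the call at 48 h was lost without either control or without 4OHT replicate 1, and the call at 96 h when the fit was limited to the compared groups (adjusted p = 0.0782). In the DGCR8 line at 96 h the 4OHT libraries stood apart, at 90.8 and 51.3 CPM, against 95.7 and 86.5 CPM in controls, and the groups overlapped (-0.36 ± 0.23; adjusted p = 0.327). Etv4 had 24.3 and 32.8 CPM in 4OHT cells of the DGCR8 line at 96 h against 52.0 and 55.8 CPM in controls. It had 28.0 CPM in the 4OHT library of the Drosha line against 56.4 and 53.3 CPM in controls. It fell by 0.91 on the log2 scale in the DGCR8 line (adjusted p = 0.00633, and 0.0655 without control replicate 2) and by 0.97 in the Drosha line (adjusted p = 0.000225). Etv5, its close relative, had 119 and 133 CPM in 4OHT cells of the DGCR8 line at 96 h against 130 and 139 CPM in controls, and 102.6 CPM in the 4OHT library of the Drosha line against 123 and 120 CPM in controls, with log2 fold changes of -0.09 (adjusted p = 0.657) and -0.24 (adjusted p = 0.114).

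**Figure D1:**
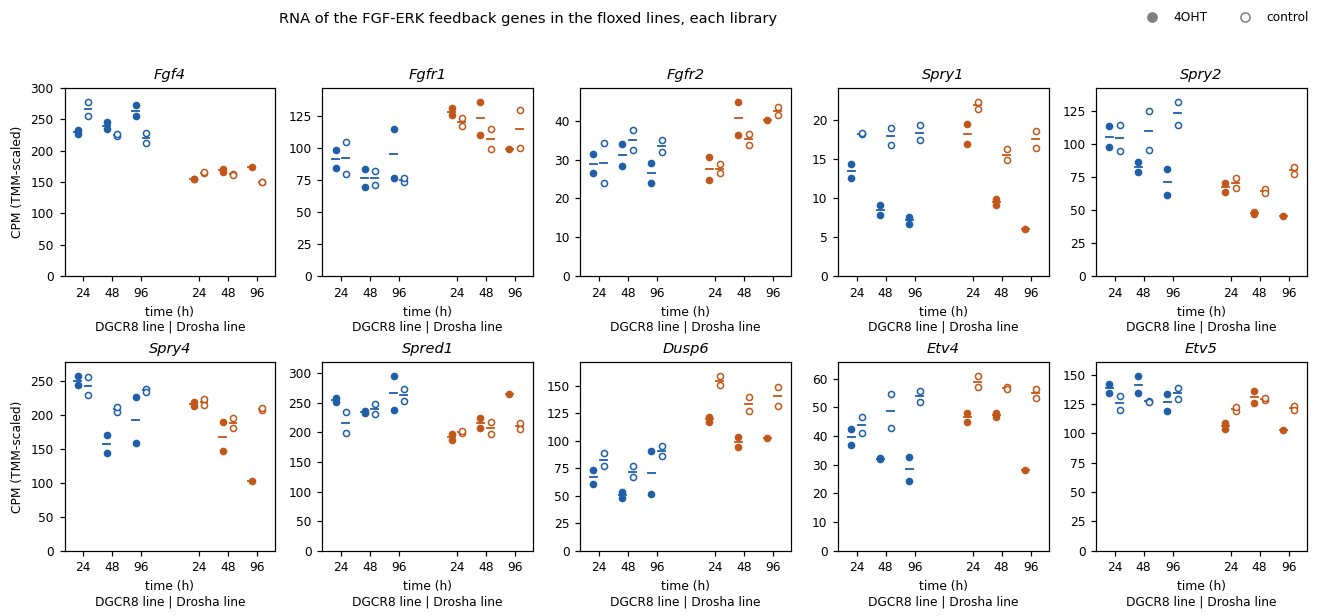
RNA of the 10 genes in every library of the floxed lines: TMM-scaled CPM (vertical axis, from 0) by hours of treatment, for the DGCR8 line (blue) and the Drosha line (orange), with 4OHT (filled) left of control (open) and short lines for group means. Spry1 in 4OHT cells stood between 6.06 and 7.61 CPM at 96 h, below all controls.

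Fgf4 was the 1 member called higher at 96 h in the joint fit of both lines, where 3 members had a positive log2 fold change. The ligand had 256 and 273 CPM in 4OHT cells of the DGCR8 line against 213 and 229 CPM in controls, and 174 CPM in the 4OHT library of the Drosha line against 150.2 and 149.3 CPM in controls. The 4OHT values were the higher ones in both lines, as for 17.7% of all genes. Neither line passed alone (log2 fold changes 0.26 and 0.22, adjusted p = 0.11 and 0.124). In a joint fit of both lines Fgf4 rose by 0.24 ± 0.06 (adjusted p = 0.0102); with library totals alone the difference was 0.04 (adjusted p = 0.838), a scaling that moved the median of all genes in this comparison by -0.20 on the log2 scale. With no filter on low counts the joint change of Fgf4 was 0.23 and did not pass (adjusted p = 0.136). Under library-total scaling Etv5 was called lower (-0.37; adjusted p = 0.0304).

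Counted over the members, none was called at 24 h in either line, where 0.107% of 14973 genes were called in the DGCR8 line and 0.184% of 16262 genes in the Drosha line (0.0307% lower). At an unadjusted p under 0.05, 1 member passed at 24 h in the DGCR8 line and 2 in the Drosha line. At 48 h, 1 member was called lower in the DGCR8 line and 3 in the Drosha line, where 0.24% and 0.369% of all genes were called lower and 1.24% and 2.45% higher. At 96 h, 3 were called lower in the DGCR8 line and 5 in the Drosha line, where 5.22% and 11% of all genes were called lower and, in the DGCR8 line, 8.25% higher, and 1 was called higher in the Drosha line, where 12.7% of all genes were. In the joint fit, 4 members were called lower at 48 h (2.61% of 16606 genes, with 5.58% called higher and 8.18% in all) and 5 at 96 h (13%), with 1 called higher at 96 h (15.1%). In that fit the call of Dusp6 was lost when 1 of 7 libraries was left out at 48 h (adjusted p = 0.0554 to 0.128). At 96 h it was lost when 1 of 4 libraries was left out (adjusted p = 0.0608 to 0.110) and with RLE size factors (adjusted p = 0.0510). The call of Spry2 at 48 h was lost when 1 of 4 libraries was left out (adjusted p = 0.0653 to 0.109). The call of Etv4 at 48 h was lost with library totals alone (-0.44, adjusted p = 0.0850) and without control replicate 1 of the DGCR8 line (-0.34). The median log2 fold change of the 10 members at 96 h was -0.32 in the DGCR8 line and -0.35 in the Drosha line, beside 0.02 and -0.01 over all genes tested. Every 4OHT library lay below every control of its line at 96 h for 5 members (Fgfr2, Spry1, Spry2, Spry4 and Etv4), as did 16.2% of all genes.

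**Figure D2:**
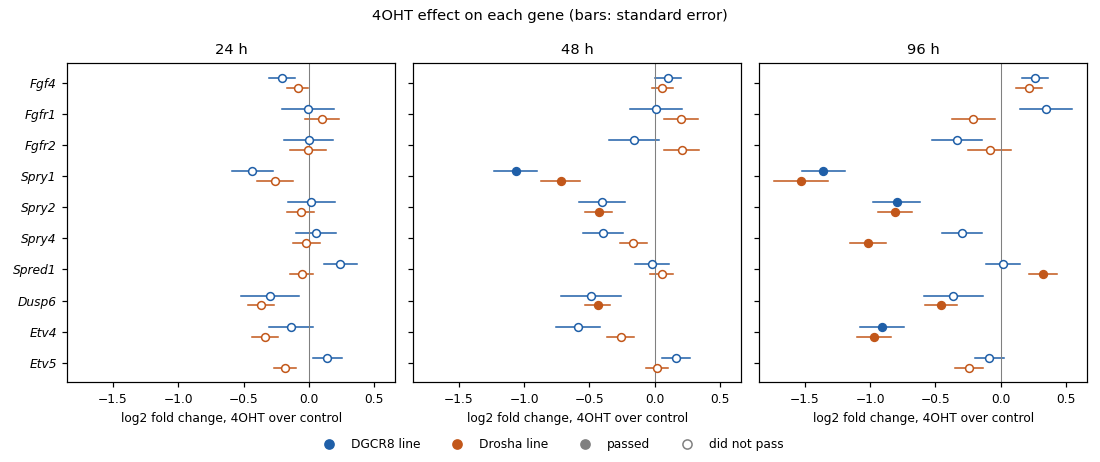
Log2 fold change of 4OHT over control (horizontal axis) for each gene (rows) at 24, 48 and 96 h in the DGCR8 line (blue) and the Drosha line (orange); bars are standard errors of the fit and filled points passed an adjusted p of 0.05. No point passed at 24 h, and Spry1 reached -1.53 in the Drosha line at 96 h.

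The lines were not shown to differ in these effects. The difference between the effects of 4OHT in the DGCR8 and the Drosha line passed for 0 of 10 members at 24, 48 and 96 h in edgeR, with 1, 0 and 1 members at an unadjusted p under 0.05 and 0 in DESeq2. Of all genes, 0.00602% were called at 24 h, 0.00602% at 48 h and 0.181% at 96 h (0.114% higher and 0.0662% lower). The largest difference was that of Spry4 at 96 h (0.72 ± 0.23; adjusted p = 0.22), and without 4OHT replicate 1 of the DGCR8 line it was 0.97 (adjusted p = 0.00608). Over time, the effect in the Drosha line at 96 h was lower than that at 24 h for 4 members: Spry1 (-1.27 ± 0.25; adjusted p = 0.00659), Spry4 (-1.001 ± 0.17; adjusted p = 0.00386), Spry2 (-0.75 ± 0.16; adjusted p = 0.0125) and Etv4 (-0.63 ± 0.16; adjusted p = 0.0252). The Spry2 and Etv4 calls were lost without some single libraries at 24 h (adjusted p = 0.0602 to 0.0856). Of all genes, 11.6% were called in this comparison, 5.23% lower and 6.33% higher. In the DGCR8 line the same difference passed for none (Spry1 -0.92, adjusted p = 0.163; Spry2 -0.82, adjusted p = 0.248), with 4 members at an unadjusted p under 0.05.

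Results at 96 h in the Drosha line rest on 1 treated library, whose spread is assumed to be that of the other groups. When the fit was limited to the compared groups, no member passed in the DGCR8 line at 96 h (Spry1 -1.37, adjusted p = 0.0759) or in the Drosha line at 48 h. Without 4OHT replicate 1, the library with the high share of mt-Rnr2, Dusp6 was also called lower in the DGCR8 line at 96 h (-0.83; adjusted p = 0.00743) and Fgfr1 was called higher (0.60; adjusted p = 0.0406), and without 4OHT replicate 2 Spry4 was called lower (-0.57; adjusted p = 0.0103). Markers of the formative state, a set of 6 genes that the exit from naive pluripotency switches on, summed to 114 and 143 CPM in 4OHT cells of the DGCR8 line at 96 h against 166 and 173 CPM in controls, and to 153 CPM in the 4OHT library of the Drosha line against 300.5 and 338 CPM in controls, with all 6 detected in every library. The 9 primitive endoderm markers, all detected, summed to 89.1 and 94.1 CPM against 106.5 and 109 CPM in the DGCR8 line and to 245 CPM against 141 and 142 CPM in the Drosha line, 4OHT against controls. The 8 neuroectoderm markers summed to between 129 and 160.4 CPM (5 to 6 detected) in 4OHT cells of the DGCR8 line at 96 h against 77.6 to 78.7 CPM (6 to 7 detected) in controls. They summed to 162 CPM (6 detected) in the 4OHT library of the Drosha line against 178 to 180.4 CPM (7 to 8 detected) in controls. In the DGCR8 line 2 of the 4 tested were called higher, and in the Drosha line 1 of 5 was called higher and 1 lower. The 9 ES cell markers, all detected, summed to between 3505 and 4268 CPM in 4OHT cells of the DGCR8 line against 4160.5 to 4328 CPM in controls, with 3 called lower. They summed to 2519 CPM in the 4OHT library of the Drosha line against 3001 to 3515 CPM in controls, with 5 called lower and 1 higher. Of all genes at 96 h, 8.25% were called higher and 5.22% lower in the DGCR8 line, and 12.7% and 11% in the Drosha line. The formative and primitive endoderm sets are given as sums alone, which a few abundant genes can carry. The part of these marker sets in the changes of the feedback genes was not tested.

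Other genes of the pathway moved in both directions. Of 25 genes of the signalling core between receptor and ERK, 7 were called higher and 6 lower at 96 h in the joint fit; the rise of the RAS inhibitors Nf1 (0.62; adjusted p = 0.000154) and Rasa1 (0.66; adjusted p = 0.000101) stood beside the fall of Hras, a RAS protein (-0.72; adjusted p = 0.000316). Of 20 other FGF ligands, receptors and binding proteins, 18 were tested, 4 were called higher, among them the ligands Fgf1 (1.23; adjusted p = 0.000143) and Fgf15 (0.80; adjusted p = 0.00119), and none lower. Of 29 other ERK feedback and target genes, 27 were tested, and 8 were called higher and 6 lower; Myc fell (-0.95; adjusted p = 8.62e-05) while Fos (1.21; adjusted p = 0.000316) and Elk3 (0.88; adjusted p = 9.4e-05), an ETS factor of the ternary complex group, rose. Of all 16606 genes in this fit, 15.1% were called higher and 13% lower. The medians of the 3 lists were 0.03, -0.04 and -0.02, beside -0.01 over all genes. The immediate early gene Egr1 was the gene of these lists whose effect differed between the lines at 96 h (1.76 higher in the DGCR8 line; adjusted p = 0.0112), with -0.95 in the Drosha line (adjusted p = 0.00442). At 24 h, when no member was called, Egr1 rose in the joint fit (0.86; adjusted p = 0.000308). These lists were chosen with earlier results of the same data known.

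In untreated cells the members moved little between 24 and 96 h. Fgf4 was lower at 96 h (-0.21 ± 0.06; adjusted p = 0.0367) and Fgfr2 higher (0.41 ± 0.12; adjusted p = 0.0485), where 7.24% of all genes were called, 4.14% lower and 3.1% higher. Neither passed with library totals alone (adjusted p = 0.147 and 0.222). The calls were also lost when 1 of 8 libraries was left out for Fgf4 and 1 of 7 for Fgfr2.

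After 1 h at 42 °C, RNA of the ligand Fgf4 was lower in all 6 lines of the heated set. It stood at 116, 86.8, 107.7 and 85.2 CPM in METTL3KO lines 1d1, 3xU, 1d2 and 2c4d at 42 °C, against 191, 147, 203 and 129 CPM in the same lines at 37 °C. In parental 1 and 2 it was 89.4 and 92.4 CPM at 42 °C against 187 and 203 CPM at 37 °C. All values at 42 °C lay below all values at 37 °C, as for 1.26% of all genes in METTL3KO lines and 14.8% in parental cells, with log2 fold changes of -0.76 ± 0.18 in METTL3KO lines and -1.10 ± 0.25 in parental cells. These did not pass the unblocked test (adjusted p = 0.185 and 0.57); blocking on the cell line, they did (adjusted p = 0.000482 and 0.00125), and also in DESeq2 (adjusted p = 0.00774 and 0.0191). With the block, 2.9% of all genes were called lower in METTL3KO lines and 0.32% in parental cells.

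Spry1 went the other way and was higher at 42 °C in all 6 lines. It had 17.8, 14.2, 8.75 and 15.9 CPM in METTL3KO lines at 42 °C (in the order above) against 12.4, 10.7, 6.59 and 8.36 CPM at 37 °C, and 19.8 and 15.2 CPM in parental cells at 42 °C against 13.2 and 11.2 CPM at 37 °C. The groups of METTL3KO lines overlapped, but each line was higher than itself at 37 °C, with a log2 fold change of 0.58 ± 0.26 (adjusted p = 0.973, and 0.0203 with the line as a block, where 3.87% of all genes were called higher). In parental cells the value was 0.52 ± 0.36 and did not pass with the block. Fgfr1 was lower at 42 °C in all 6 lines by a small amount (-0.29 to -0.07 on the log2 scale of CPM + 1) and did not pass with or without the block. Lower in all 6 lines were 9.43% of all genes, and higher in all 6 were 8.21%.

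**Figure D3:**
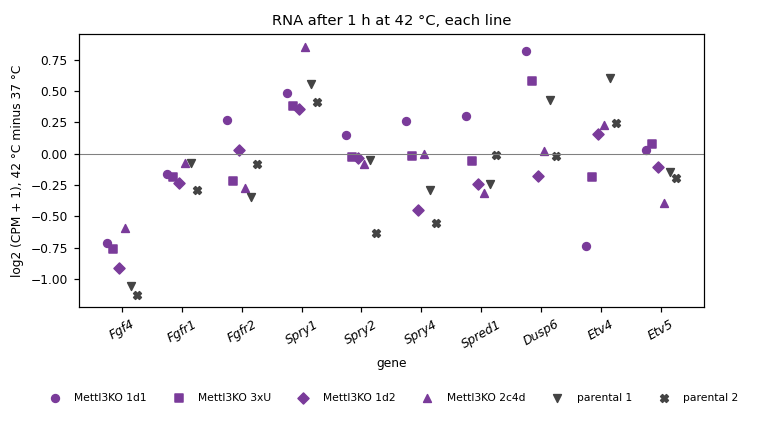
Difference of log2 (CPM + 1) between 42 °C and 37 °C (vertical axis) for each gene and line; purple points are the 4 METTL3KO lines and grey points parental 1 and 2. Fgf4 lay below 0 and Spry1 above 0 in all 6 lines, while the other genes except Fgfr1 were mixed.

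The other members were mixed among lines. Dusp6 was higher at 42 °C in 4 of 6 lines, with 64.5 against 36.2 CPM in 1d1 and 107 against 71.3 CPM in 3xU. Its differences of log2 (CPM + 1) were 0.43 in parental 1, 0.03 in 2c4d, -0.02 in parental 2 and -0.18 in 1d2. Etv4 was higher in 4 of 6 lines but lower in 3xU and in 1d1, at 47.0 against 78.8 CPM in the latter. No member was called without the block at either genotype (0.185% of 15635 genes called in METTL3KO lines and 0.0192% in parental cells), with 2 and 1 members at an unadjusted p under 0.05. The difference in heat effect between METTL3KO and parental cells passed for 0 members and for 0% of all genes, with 0 members at an unadjusted p under 0.05. Of the other pathway genes, Fos rose with heat in METTL3KO lines (2.82; adjusted p = 0.0204); of 25 core genes none passed.

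METTL3KO lines against parental cells gave no call among the 10 members at 37 °C (0.902% of all genes called) or at 42 °C (0.64%), with 2 members at an unadjusted p under 0.05 at each temperature. Spry4 had 176, 198, 137 and 168 CPM in METTL3KO lines at 37 °C, against 316 and 266 CPM in parental cells. All 4 lines lay below both parental libraries, as did 13.3% of all genes, at a log2 fold change of -0.78 ± 0.27 (adjusted p = 0.178). Etv4 had 47.0, 49.8, 66.8 and 36.9 CPM in METTL3KO lines at 42 °C against 112 and 96.9 CPM in parental cells, again without overlap, as for 12.3% of all genes (-1.06 ± 0.30; adjusted p = 0.113, and 0.0366 in DESeq2). The knockout lines differed among themselves: Spred1 was 454 CPM in 3xU at 37 °C against 164 CPM in 1d1, and Fgfr1 was 125 CPM in 1d1 against 46.1 CPM in 1d2. The 9 primitive endoderm markers, all detected, summed to 14.8 to 22.9 CPM in METTL3KO lines at 37 °C against 70.6 to 91.1 CPM in parental cells. The 8 trophoblast markers went the other way, at 69.4 to 203 CPM against 42.7 to 49.1 CPM, and the sums of the other marker sets overlapped. The part of these markers in the differences was not tested. Counts of Mettl3 over the whole gene were 21.7 to 40.8 CPM in METTL3KO lines at 37 °C against 69.2 to 71.5 CPM in parental cells, and do not check the edited part alone.

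On chromatin, METTL3 was enriched over input most at Spry4, Spry2 and Fgf4, and not at Spry1. Reads of the precipitates exceeded input for 5 members summed over their windows: Spry4 (log2 fold change 1.43 ± 0.23; adjusted p = 3.25e-05), Spry2 (1.34 ± 0.20; adjusted p = 1.55e-05), Fgf4 (0.75 ± 0.14; adjusted p = 0.000178), Spred1 (0.42 ± 0.10; adjusted p = 0.00155) and Etv5 (0.34 ± 0.09; adjusted p = 0.00368). The receptor Fgfr1 (-0.51 ± 0.06; adjusted p = 1.66e-06) and Etv4 (-0.37 ± 0.10; adjusted p = 0.00477) were below input. Of 29622 genes, 20.1% were called higher and 27.9% lower, and the median of the members was 0.37 beside 0.04 over all genes. Dusp6 was at 0.41 ± 0.17 (adjusted p = 0.0579, and 0.024 with the clone as a block). Windows of Spry4 are shared with Arhgap26 and those of Etv4 with Dhx8, so their sums hold reads of both genes.

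Spry2 had 24.0 and 29.5 CPM in the precipitates of clone 1 against 12.7 CPM in its input, and 46.6 and 25.5 CPM in those of clone 2 against 12.1 CPM in its input. All 4 precipitates lay above both inputs, and replicate 1 of clone 2 was highest. The share of all genes with such a separation was not counted. Spry4 followed the same pattern, with 44.5 and 59.5 CPM in clone 1 against 26.7 CPM in input and 109 and 62.3 CPM in clone 2 against 24.2 CPM in input. Spry1, which is little expressed per length, had 6.52 and 7.83 CPM in clone 1 against 7.13 CPM in input and 6.11 and 6.05 CPM in clone 2 against 7.43 CPM in input, with no call (-0.13; adjusted p = 0.477).

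At 3 of the 4 genes that span 2 windows (Spry2, Dusp6 and Fgf4), the enrichment lay in the window that holds the end of the gene. The end window of Spry2 (chr14:105890001-105895000) had 15.4 and 19.1 CPM in precipitates of clone 1 and 31.5 and 15.8 CPM in those of clone 2, against 3.01 and 2.70 CPM in the inputs (2.62 ± 0.26; adjusted p = 1.04e-16). The start window of Spry2 had 8.62, 10.4, 15.1 and 9.73 CPM in the same precipitates against 9.72 and 9.40 CPM in the inputs (-0.02; adjusted p = 0.97). The precipitates thus lay above input in the end window of Spry2 and around it in the start window. At Dusp6 the end window was above input (2.07 ± 0.24; adjusted p = 4.57e-13) and the start window below it (-0.94 ± 0.19; adjusted p = 2.85e-05), and at Fgf4 the end window was above (1.84 ± 0.23; adjusted p = 2.08e-11) and the start window was not called (-0.26; adjusted p = 0.385). Spry1 showed no such call in either window (-0.16 and -0.43).

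Of the 77 windows of the members, 9 were called higher and 16 lower, against 4.14% and 12.5% of 477127 windows. For the 7 members whose strand is known, 3 of 7 end windows were called higher and none lower, and 3 of 7 start windows (Fgfr2, Dusp6 and Etv5) were called lower and none higher. Over all genes, 10.5% of 14569 end windows were called higher and 57.1% of 14416 start windows lower, so low start windows were common. The highest window of all was in Spry4 (3.04 ± 0.30; adjusted p = 4.02e-17), and the lowest in Fgfr1 (-1.78). A 5 kb window is longer than Fgf4, Spry1, Spry2 or Dusp6, so their start and end windows also hold sequence outside the gene. The end window of Fgf4 (chr7:144865001-144870000) is mostly downstream sequence, as the gene ends at 144865245. The start window of Spry1 (chr3:37635001-37640000) is mostly upstream sequence, as the gene starts at 37639947, and its end window holds most of the gene. Signal in these windows cannot be placed at the start or end of the gene itself.

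**Figure D4:**
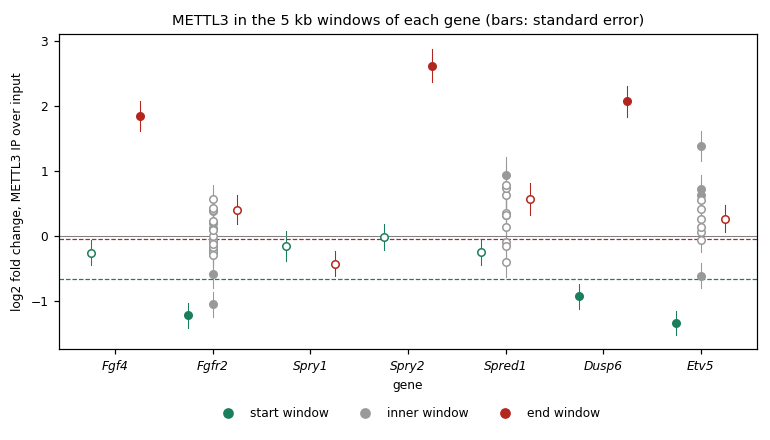
Log2 fold change of METTL3 precipitates over input (vertical axis) in the 5 kb windows of the 7 genes of known strand, with bars for standard errors: start windows (green), inner windows (grey) and end windows (red), filled where the adjusted p passed 0.05. Dashed lines are the medians over all genes for start windows (-0.67) and end windows (-0.05); the end windows of Spry2, Dusp6 and Fgf4 lay at 2.62, 2.07 and 1.84.

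The other proteins had 1 library per condition and no test, so intervals are exact (Clopper-Pearson) 95% intervals for counting error only. The DGCR8 precipitate of cells crosslinked with disuccinimidyl glutarate (DSG), a long-armed protein crosslinker, was above DGCR8 input at Spry2 (48.3 against 10.5 CPM; log2 ratio 2.20, 2.06 to 2.35), Spry4 (2.00), Spred1 (1.51), Fgf4 (1.07) and Dusp6 (0.80). These 5 members were over 1.5-fold higher, as were 22.2% of 28990 genes, and Fgfr1 and Fgfr2 were over 1.5-fold lower (-0.94 and -0.70), as were 18.7%. With formaldehyde alone no member was over 1.5-fold higher (11.5% of genes) and Fgfr1 was over 1.5-fold lower (-0.91; 10.2% of genes); Spry2 and Spred1 were at 0.53 each. Drosha with DSG was over 1.5-fold above the parental input at Fgf4 (0.94), Spred1 (0.93), Etv5 (0.71) and Spry4 (0.62), where 18% of genes were, while Spry2 was at -0.06 and Spry1 over 1.5-fold lower (-0.61; 26.1% of genes). Dicer, the enzyme that makes mature microRNAs from Drosha's products, was above parental input at Fgfr1 (0.22) and below or not apart from it at the other 9, with Fgf4 lowest (-0.72), the single member over 1.5-fold lower, as were 1.71% of genes.

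In cells lacking METTL3, the DGCR8 precipitate had less signal at Spry2 and Spry4. Spry2 had 6.49 CPM in the METTL3KO precipitate against 16.8 CPM in the wild type precipitate and 12.9 CPM in wild type input (log2 ratio of knockout over wild type -1.37, -1.65 to -1.10), and Spry4 had 17.1 CPM against 31.2 CPM (-0.87, -1.05 to -0.69). Both were over 1.5-fold lower, as were 4.27% of 28610 genes, and stood at percentiles 0.301 and 1.39 of all genes. The other 8 lay between -0.39 for Dusp6 and 0.28 for Fgfr1. Wild type DGCR8 in this set was less than 1.5-fold above its own input at all 10 members, with Spry2 at 0.38 and Spred1 at 0.46, and no knockout input was used here.

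After 1 h at 42 °C, DGCR8 signal was lower along 9 of the 10 genes, and METTL3 signal along 10 in H4 and 9 in H5. Of all genes, 46.4%, 39.2% and 44.1% lay above 0 in these 3 comparisons. For METTL3, 6 members were over 1.5-fold lower in H4, as were 14.1% of genes, and 5 in H5, as were 9.68%. Fgf4 had 8.96 CPM in the DGCR8 precipitate at 42 °C against 65.4 CPM at 37 °C, with 12.1 CPM in the input at 37 °C (log2 ratio -2.86, -3.00 to -2.73, percentile 0.264 of all genes). These DGCR8 libraries held 79.3 M reads at 42 °C and 20.4 M at 37 °C. In the latter, 7 members were over 1.5-fold above input (25.3% of genes) and 2 below (28.4%). DGCR8 precipitates of the other sets held less Fgf4: 9.98 CPM with formaldehyde, 24.3 CPM with DSG and 10.5 CPM in wild type cells. Spry4 was at -2.24, Spry2 at -1.92, Etv5 at -1.79 and Dusp6 at -1.78, and 8 members were over 1.5-fold lower, as were 24.8% of 29498 genes. Fgfr2 was the exception, at 0.18. For METTL3, Fgf4 had 9.23 and 10.2 CPM in the H4 and H5 precipitates at 42 °C against 32.1 and 26.3 CPM at 37 °C; inputs at 37 °C held 20.4 and 14.0 CPM. Both values at 42 °C were below both at 37 °C and below the inputs, but the share of all genes that separated in this way was not counted.

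The METTL3 change at Fgf4 was -1.44 ± 0.22 and missed the threshold (adjusted p = 0.0713); it passed when the cell line was blocked (-1.43; adjusted p = 0.0149, where 1.63% of genes were called lower) and in DESeq2 (adjusted p = 7.94e-06). Spry2 was at -1.40 ± 0.72, Spry4 at -1.31 ± 0.68 and Dusp6 at -1.20 ± 0.40 (adjusted p = 0.609, 0.614 and 0.41). H5 held more signal than H4 at 37 °C at Spry2 (88.8 against 24.7 CPM) and Spry4 (204 against 59.6 CPM). Spry1 had 10.3 CPM in H5 against 9.67 CPM in H4. The Spry2 log2 ratios of 42 °C over 37 °C were -1.50 in H5 and -1.65 in H4. No member was called without the block (0.0867% of 29978 genes called), with 3 at an unadjusted p under 0.05; the median of the members was -0.54 beside 0.08 over all genes. No input at 42 °C was used, so a change of input with heat cannot be told apart from a change of binding.

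**Figure D5:**
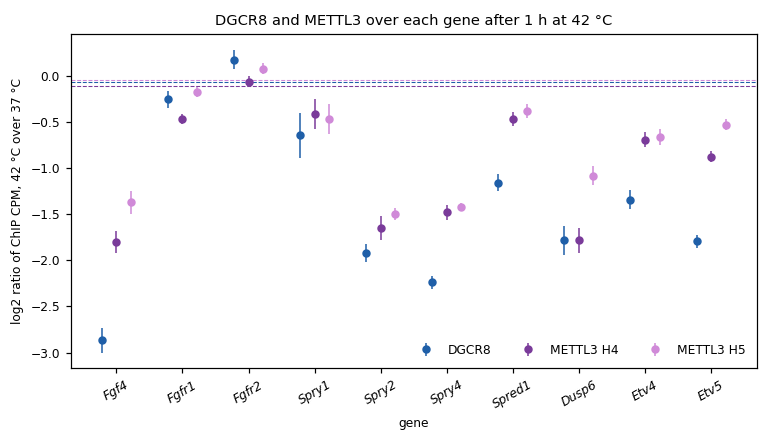
Log2 ratio of ChIP CPM at 42 °C over 37 °C (vertical axis) for DGCR8 (blue) and METTL3 of H4 (purple) and H5 (pink) over the windows of each gene; bars are 95% intervals for counting error and dashed lines the medians over all genes. Fgf4 lay lowest for DGCR8 at -2.86, and Fgfr2 lay at 0.18, -0.06 and 0.08.

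Across the 35 RNA libraries, after each table's mean was subtracted, the members did not follow a single pattern. This is a description over libraries that share lines and treatments, with no test. Spry1 and Spry4 were the closest pair (Pearson r = 0.62), followed by Spry1 and Etv4 (0.59), Spry2 and Spry4 (0.58) and Spry2 and Etv5 (0.56). Fgf4 and Dusp6 ran opposite to each other (r = -0.61), as did Fgfr1 and Etv5 (-0.55). Among 15337 genes, the genes most like Spry1 were Ybx3 (0.87), Pim3 (0.86) and Slc3a2 (0.86), those most like Etv4 were Kirrel2 (0.84), Lss (0.83) and Ltbp4 (0.80), and those most like Fgf4 were Hes1 (0.78), Zfp143 (0.77) and Fam20c (0.76). Spry4 ranked at place 196 for Spry1 and Etv4 at 258, so many other genes lay closer to Spry1 than Spry4 or Etv4 did.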

How the data were processed

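RNA was depleted of ribosomal RNA (Ribo-Zero) and made into libraries with ScriptSeq v2, per the labels' protocols, and the submitters' processing notes name Bowtie and the mm10 build. Not given in the sources used here are the counting strand and annotation. The authors deposited raw read counts per gene for RNA and per 5 kb window for ChIP. The members and gene lists were chosen with earlier results of these data known. All 10 members are named in every comparison, and up to 4 genes per other list, by smallest p among those called.

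Tests used edgeR 4.0.16 (R 4.3.3; quasi-likelihood F test), after TMM scaling and filterByExpr and with Benjamini-Hochberg adjustment over all genes at 0.05. Each floxed line, the heated set and each METTL3 set had its own fit, and both floxed lines a joint fit, which also gave the printed CPM. ChIP counts were summed over the windows of each gene (RefSeq GRCm38.p6 spans, a mean of at least 10 counts). Single ChIP libraries were compared as log2 ratios of CPM to library totals, with 1 pseudocount and exact 95% intervals, for genes with at least 50 counts. The fits were tested on simulated data. Alternatives were DESeq2 1.42.0, other scalings and filters, a replicate block, the compared groups only and leaving out each library. In the heated set the same cell line gave both temperatures, and deviations of same-line libraries correlated at 0.553 to 0.796, so values with the line as a block stand beside results whose call they change.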

Additional observations from a re-analysis of the deposited data

Results flagged for a closer look

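Within the Drosha line, the effect of 4OHT at 96 h was lower than that at 24 h, by a test of the difference itself in the fit of that line, for 4 genes. The differences in log2 fold change were -1.27 for Spry1, -1.001 for Spry4, -0.75 for Spry2 and -0.63 for Etv4. The effect at 96 h rests on 1 treated library, with 21.3% of its reads from mt-Rnr2 against 11.7% and 11.8% in the controls, and the part of that share in the differences was not tested. In the 20 groups of values tested (10 genes in METTL3KO lines at each temperature), no library lay far from the others by Dixon's criterion at 95%.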

How the results depend on the processing

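No change of direction occurred among called values. Each of the 10 genes in each comparison gave 1 result per setting, called or not. Settings other than leaving out a library kept 1305 results on their side of the threshold, ended 32 calls and added 23. Leaving out a library kept 1387 results on their side, ended 61 calls and added 12. The kept results include those that were not called under either setting, so they do not give the share of calls that held. Counts of members called moved by over 1.5 times as follows. With library totals alone they were 0 in the DGCR8 line at 48 h (1 as reported), 0 between untreated times (2) and 1 for METTL3 at 42 °C (0). With the compared groups only they were 0 in the DGCR8 line at 96 h (3), and 2 at 24 h (0) and 0 at 48 h (3) in the Drosha line. With no filter they were 1 for the change of effect in the DGCR8 line, 1 in the Drosha line at 24 h, 1 for the difference between lines at 96 h, 1 between untreated times, and 1 for METTL3KO against parental cells at 42 °C. RLE size factors gave 1 between untreated times. DESeq2 gave 1 each for heat in parental cells, heat in METTL3KO lines, METTL3KO against parental cells at 42 °C, and METTL3 at 42 °C. Smaller moves were a count of 4 in the Drosha line at 96 h (6 as reported) with the compared groups only, 9 for METTL3 over input (7) with library totals alone, with a mean of at least 50 counts or over single windows, and moves of 1 elsewhere. The cause was not tested.

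With a replicate block, 0 members were called in the Drosha line at 48 h and 1 for its change of effect (4 as reported), 1 and 2 for heat in parental and METTL3KO cells, and 1 for METTL3 at 42 °C; no other count moved by over 1.5 times. The block also ended the calls of Spred1 (0.30; adjusted p = 0.248) and Dusp6 (-0.54; adjusted p = 0.0532) in the Drosha line at 96 h, of Spry2 at 48 h (-0.42; adjusted p = 0.0841) and Fgf4 at 96 h (0.24; adjusted p = 0.0586) in both lines, and added Dusp6 for METTL3 over input (0.39; adjusted p = 0.0240). Replicate numbers of the floxed set did not pair its samples, with correlations of deviations from -0.449 to 0.331.

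Leaving out 1 library gave 0 to 0 members in the DGCR8 line at 48 h, 1 to 5 at 96 h and 0 to 1 for its change of effect. It gave 0 to 3 in the Drosha line at 48 h, 5 to 5 at 96 h and 2 to 4 for its change of effect. Ranges were 1 to 4 at 48 h and 5 to 7 at 96 h in both lines, 0 to 2 for the difference between lines at 96 h, 5 to 6 between untreated lines, 0 to 1 between untreated times and 7 to 8 for METTL3 over input, and 0 in the other comparisons. Depth was 53 or more reads per member and RNA library. Groups of 2 libraries, and 1 for 4OHT in the Drosha line at 96 h, limit all tests, and single ChIP libraries have no replicate check.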
